A study of Mus musculus with 61 samples.

Results

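The STAT family of transcription factors was followed at the RNA level through mouse T cells and spleens in which its member STAT5B had been deleted, replaced or mutated. The 6 members analysed here are Stat2, Stat3, Stat4, Stat5a, Stat5b and Stat6. They were taken by symbol from the 24421 genes counted in each library. All 6 were counted in every library, with 57 reads as the lowest count (Stat5a in a splenic T cell library), and all 6 passed the filter on low counts in every fit.

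STAT proteins wait in the cytoplasm until a Janus kinase bound to a cytokine receptor phosphorylates a tyrosine near their C terminus. The SH2 domain of a partner STAT then holds that phosphotyrosine, and the dimer moves to the nucleus, where it binds DNA and recruits coactivators. Each member serves its own cytokines. STAT5A and STAT5B are close relatives that carry the signals of IL-2 and IL-7, STAT3 those of IL-6, IL-10 and IL-21, STAT4 those of IL-12, STAT6 those of IL-4 and IL-13, and STAT2 those of type I interferons, for which it joins IRF9. In helper T cells STAT4 is known for the Th1 fate, STAT6 for Th2 and STAT3 for Th17. Because the members share receptors, DNA sequences and inhibitors, the loss of STAT5 raises the question of whether the other members change in amount.

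The study asked how substitutions of the tyrosine Y665 in the SH2 domain of STAT5B, found in T cell leukemia, alter its activity. All mice were C57BL/6 and 2 months old by their labels. In the first experiment, naive CD4+ T cells came from pooled lymph nodes and spleens of WT mice, or of mice whose floxed Stat5a/b had been deleted by a Cd4-Cre transgene, which acts in all T cells that pass the double-positive stage of the thymus. The genotype label names floxed Stat5a/b for all 30 of these libraries, those titled WT included, and the background was therefore taken from the titles. These cells were activated through TCR and CD28 and transduced with a retroviral vector that was empty (control) or encoded STAT5B, N642H, Y665F or Y665H. They were then kept in IL-2 for 48 h. GFP-positive cells were sorted from these cultures for sequencing, which gave 10 groups of 3 libraries. N642H is an established activating mutation and served as a positive control. In the second experiment, total T cells of WT, Y665H and Y665F knock-in spleens were kept for 24 h with IL-2 and IL-7. Each genotype gave 4 libraries. Y665F T cells without interleukin gave 3 libraries, and whether these cells were also cultured is not given in the sources used here. In the third experiment, unstimulated spleens gave 4 WT, 5 Y665H and 7 Y665F libraries. Whether these knock-in mice were heterozygous or homozygous is not in the labels.

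The sequence at the centre of the design is shown first, because the mutant vectors and both knock-in alleles differ from their controls within it. Stat5b lies on chromosome 11 of GRCm38 (100780731 to 100850724, minus strand). The codons of N642 and Y665 both lie in its exon 16, in the coding sequence of Stat5b-202, the isoform carried by the vectors. The stretch from 2 codons before N642 to 2 codons after Y665 is chr11:100787285-100787368 on the minus strand, and Stat5a has its counterpart at chr11:100881041-100881124 on the plus strand, in Stat5a-201. Capitals mark the codons of N642 and Y665.
Stat5b: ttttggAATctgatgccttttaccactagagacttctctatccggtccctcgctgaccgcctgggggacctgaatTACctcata
Stat5a: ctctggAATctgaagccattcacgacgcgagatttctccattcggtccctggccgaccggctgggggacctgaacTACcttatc
Over this stretch 67 of 84 bases are the same in both genes (79.8%), both marked codons included. Reads from a Stat5b vector could therefore be looked for among the Stat5a counts, which is done with the values below.

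The Y665H mice were made with an adenine base editor and a guide that lies on the plus strand, opposite to the coding strand of Stat5b, at chr11:100787287-100787309, with its PAM in capitals. The Y665F mice were made with Cas9 and a donor oligonucleotide that corresponds to chr11:100787232-100787364 on the minus strand, in which capitals mark the bases that differ from the reference.
Guide: tgaggtaattcaggtcccccAGG
Y665F donor: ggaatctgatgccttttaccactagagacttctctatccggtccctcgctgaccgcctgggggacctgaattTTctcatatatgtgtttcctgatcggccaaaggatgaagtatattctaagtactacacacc
Counted from the first base of the Stat5b-202 coding sequence, the donor carries A1994T and C1995T, which turn the codon of Y665 from TAC to TTT. No other base of the 133 listed differs. The study's methods also name a silent C-to-G change in the Y665F donor, which these letters do not hold. The knock-in mice keep their own Stat5b gene and promoter, whereas the vectors add transcripts under a viral promoter to whatever the cell makes itself.

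The other members lie elsewhere in GRCm38, Stat4 (ENSMUSG00000062939.11) on chromosome 1 (51987148 to 52107189, plus strand), Stat6 (ENSMUSG00000002147.18) on chromosome 10 (127642986 to 127660957, plus strand) and Stat2 (ENSMUSG00000040033.16) 609601 bases further along it (128270559 to 128292849, plus strand), while Stat3 (ENSMUSG00000004040.16), Stat5a (ENSMUSG00000004043.14) and Stat5b (ENSMUSG00000020919.11) are neighbours on chromosome 11.

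The number of reads on genes per library was 18825994 to 49850689 for CD4+ T cells, 2017012 to 27394249 for splenic T cells and 24203179 to 43330536 for spleens. Levels are given as CPM, the reads on a gene scaled to libraries of equal size, after TMM scaling within each of these materials, so levels are not compared between materials. The labelled cell types carried their markers. Cd4 ranged from 633 to 1184 CPM in the CD4+ libraries, where the pair Cd8a and Cd8b1 summed to at most 20.5 CPM and 8 B cell genes to at most 6.56 CPM. In splenic T cells 10 T cell genes summed to 716 to 2646 CPM, the lowest of these in Y665F library 3 with interleukins, in which B cell genes summed to 547 CPM and erythroid genes to 1485 CPM. Whole spleens held B cell genes at 2627 to 3979 CPM and T cell genes at 355 to 931 CPM, so spleen values are those of a mixture. Among spleens, Y665H library 1 stood apart from its group, with erythroid genes at 1503 CPM against 6198 to 8801 CPM in the other 4.

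The targeted genes were examined first. In WT cells with the empty vector, Stat5b was at 187, 209 and 207 CPM and Stat5a at 137, 165 and 172 CPM. In cells that lacked Stat5a/b and carried the empty vector, Stat5b was at 2.78, 5.30 and 9.49 CPM and Stat5a at 1.70, 3.13 and 6.66 CPM. The groups did not overlap for either gene, and what remained corresponded to 101 to 275 reads for Stat5b and 62 to 193 reads for Stat5a. A gene was counted as passing when its adjusted p was under 0.05 in the quasi-likelihood test of edgeR, adjusted after Benjamini and Hochberg over all genes of the fit. Stat5b differed by a log2 fold change of -5.12 (SE 0.30, adjusted p = 3.6e-12) and Stat5a by -5.39 (SE 0.58, adjusted p = 2.97e-07). The counts of the targeted genes thus went with the labels of the null libraries. The residual signal was shared by libraries of the same number, since in all 5 null groups Stat5a was lowest in library 1 and highest in library 3, and it reached 14.9 CPM in Y665H library 3.

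Each STAT5B vector brought Stat5b reads back into null cells. Stat5b was at 355, 345 and 246 CPM with STAT5B, at 209, 255 and 186 CPM with N642H, at 221, 332 and 286 CPM with Y665F and at 239, 365 and 196 CPM with Y665H. Against the empty vector these were log2 differences of 5.75, 5.19, 5.56 and 5.54. All of these libraries but N642H library 3 were thus within or above the range of WT cells with the empty vector. Stat5a did not pass in any of the 4 comparisons, with log2 differences of -0.26 for STAT5B, 0.10 for N642H, 0.28 for Y665F and 0.95 for Y665H. All 4 intervals held 0 and were wide, that for Y665H from -0.43 to 2.34. Adding 246 CPM or more of STAT5B vector reads left Stat5a at 1.95 to 5.39 CPM. Relative to the empty-vector library of its number, Stat5a was at 0.778 to 1.14 times with STAT5B. It was higher in 3 of 3 pairs with each mutant. The ratios were 1.07 to 1.28 with N642H, 1.16 to 1.27 with Y665F and 1.16 to 2.24 with Y665H. Few of the vector's reads were thus counted as Stat5a, and whether any were was not tested. In WT cells the same vectors came on top of the cell's own transcripts, which the counts cannot tell apart from those of the vector, and Stat5b rose to 374 to 564 CPM, with log2 differences of 1.30, 1.13, 1.06 and 1.30 for STAT5B, N642H, Y665F and Y665H.

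Loss of Stat5a and Stat5b was followed by a higher level of Stat3, the mediator of IL-6 family signals. With the empty vector, Stat3 was at 283, 377 and 378.4 CPM in null cells and at 197, 208.9 and 209.3 CPM in WT cells. Every null library lay above every WT library, and the WT libraries were close together. The log2 fold change was 0.75 (SE 0.16, 95% interval 0.42 to 1.09, adjusted p = 0.00187), a 1.69-fold difference. In this comparison 3 of the 6 members passed, Stat5a, Stat5b and Stat3, while 13.9% of all genes tested passed, so that the deleted pair apart 1 of the other 4 members passed against that background. Stat3 kept an adjusted p under 0.05 under 13 alternatives of scaling, filter, tool, block and left-out libraries, with 0.0124 at most. Its difference is under a log2 fold change of 1, and with that as a further criterion the deleted pair alone was called.

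Stat4, which carries IL-12 signals, had the next largest difference. It was at 152, 150.6 and 132.2 CPM in null cells and at 123.8, 121.2 and 82.1 CPM in WT cells with the empty vector. The groups did not overlap, but the log2 difference of 0.41 (SE 0.20) had an adjusted p of 0.188 and did not pass. Stat2, the interferon member, was at 32.3, 45.2 and 47.0 CPM against 44.0, 34.1 and 38.8 CPM. These libraries overlapped, and the log2 difference of 0.09 had a 95% interval from -0.35 to 0.54. Stat6, the IL-4 member, was at 287, 276 and 279.5 CPM against 268, 316 and 300.0 CPM, and its log2 difference of -0.07 had the narrow interval of -0.26 to 0.12. The median log2 difference of the 4 members outside the deleted pair was 0.25, beside -0.12 over all 21975 genes tested.

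**Figure D1:**
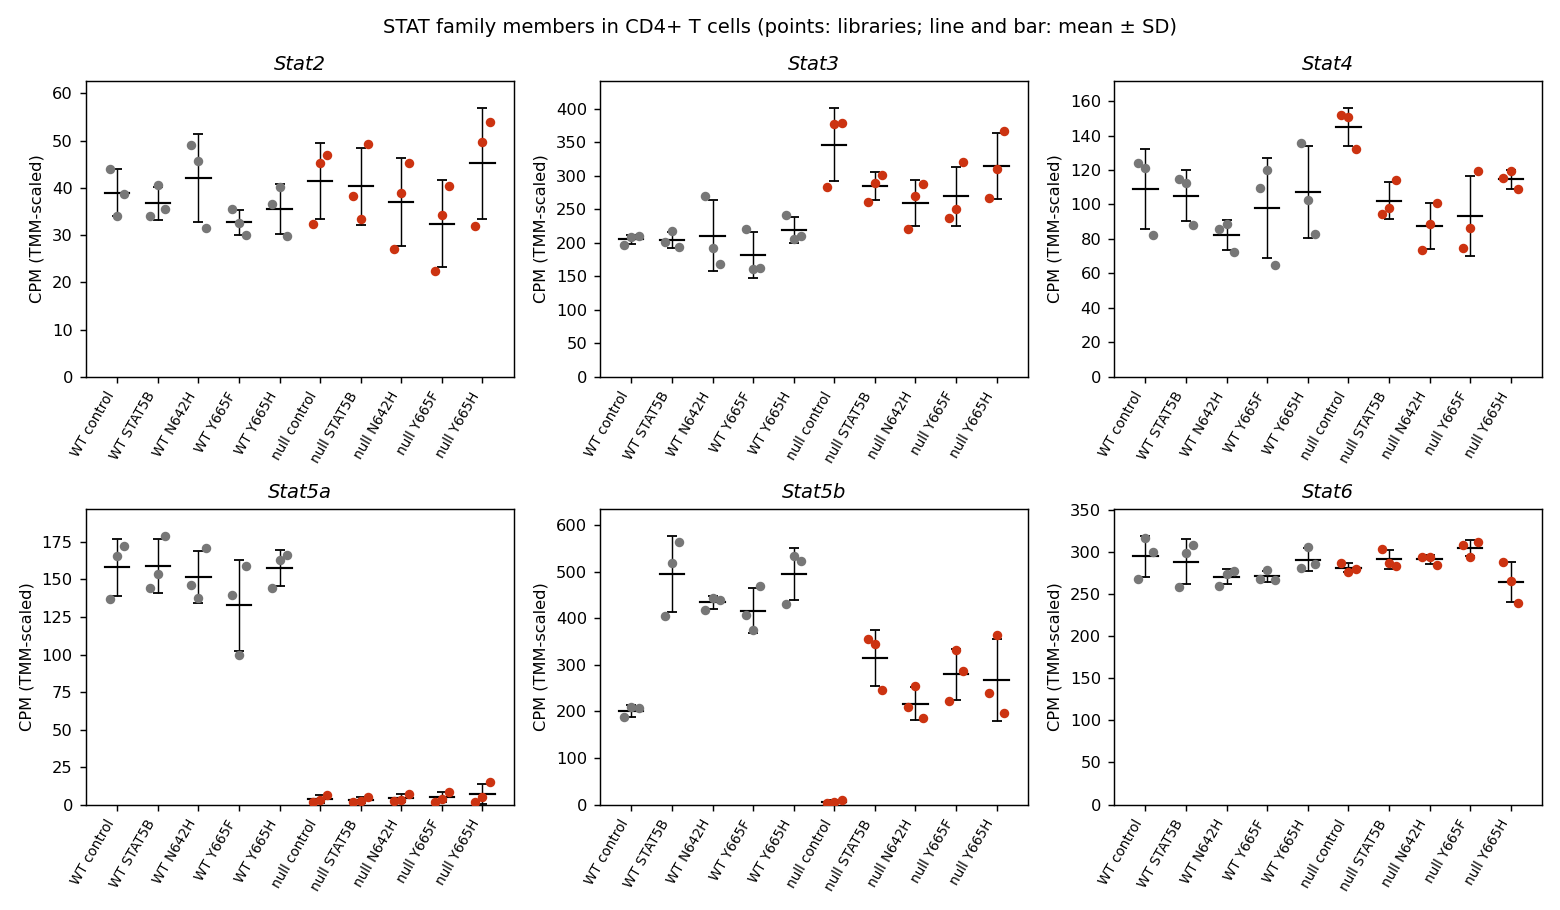
Levels of the 6 members in the 30 CD4+ T cell libraries, as CPM on linear axes from 0, by background and vector. Points are libraries, and lines with bars are group means with their SD. Stat5a and Stat5b drop in null cells, the vectors bring back Stat5b alone, and all 3 null libraries with the empty vector lie above the WT libraries for Stat3.

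Stat3 shares its neighbourhood with the deleted genes, and that neighbourhood was therefore described. On chromosome 11 Stat5b (100780731 to 100850724, minus strand) is followed after 8626 bases by Stat5a (100859351 to 100885169, plus strand), and the end of Stat5a overlaps the end of Stat3 (100885098 to 100939540, minus strand) by 72 bases. The strand setting of the count is not given in the sources used here, so reads in that overlap may have been counted for either gene or dropped. The 9 protein-coding genes within 100 kb of the deleted pair were taken, a window chosen after the value of Stat3 was known. In this comparison 3 of the 9 passed, Stat3 itself included, beside 13.9% of all genes tested. Rab5c, an endosomal GTPase, was lower at -0.37 (adjusted p = 0.0238), and Ghdc, the nearest gene on the other side, was higher at 0.56 (adjusted p = 0.0424). Whether Stat3 differs through its position was not tested.

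Other cell type genes moved with the same comparison, in which 13.9% of all genes passed. Of 10 T cell genes 4 were higher and 1 lower in null cells, the Cd8a and Cd8b1 sum was 15.1 to 20.3 CPM against 6.29 to 7.62 CPM, and the regulatory T cell pair Foxp3 and Ikzf4 summed to 12 to 26.5 CPM against 41.3 to 51.6 CPM. Of 7 neutrophil genes 1 was lower, with sums of 0.0825 to 0.345 CPM against 0.399 to 0.799 CPM, and S100a8, S100a9 and Elane were at 0 in all 3 null libraries. The part of these differences in the level of Stat3 was not tested.

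Levels of different genes can be compared only per length, and for this CPM were divided by the length of all exons of a gene in kb. In WT cells with the empty vector Stat6 was the most abundant member at 66.9 CPM per kb, followed by Stat5b at 36.4, Stat4 at 28.2, Stat5a at 22.2, Stat3 at 21.5 and Stat2 at 6.57. In null cells with the empty vector Stat6 was at 63.8 CPM per kb, Stat4 at 37.4, Stat3 at 36.3 and Stat2 at 7.0, with Stat5b at 1.06 and Stat5a at 0.54. Stat5a and Stat5b together made up 32.2% ± 1.96 (SD, n = 3) of the family's summed CPM per kb in WT cells and 1.08% ± 0.645 (SD, n = 3) in null cells. The deleted pair fell by 56.9 CPM per kb, and the other 4 members together were 21.4 CPM per kb higher, at 145 ± 4.66 against 123 ± 6.71 (SD, n = 3). The gain of the other 4, which was 17.4% of their WT level, was thus smaller than the loss, and the family as a whole was at 146 CPM per kb in null cells and 182 CPM per kb in WT cells. In WT cells that received a STAT5B vector the Stat5 pair made up 45.7% to 48% of the family, and in null cells that received 1 it made up 24.5% to 30.7%. Vector reads were divided here by the length of all Stat5b exons. The length of the vector transcript is not given in the sources used here, so these shares are approximate.

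**Figure D2:**
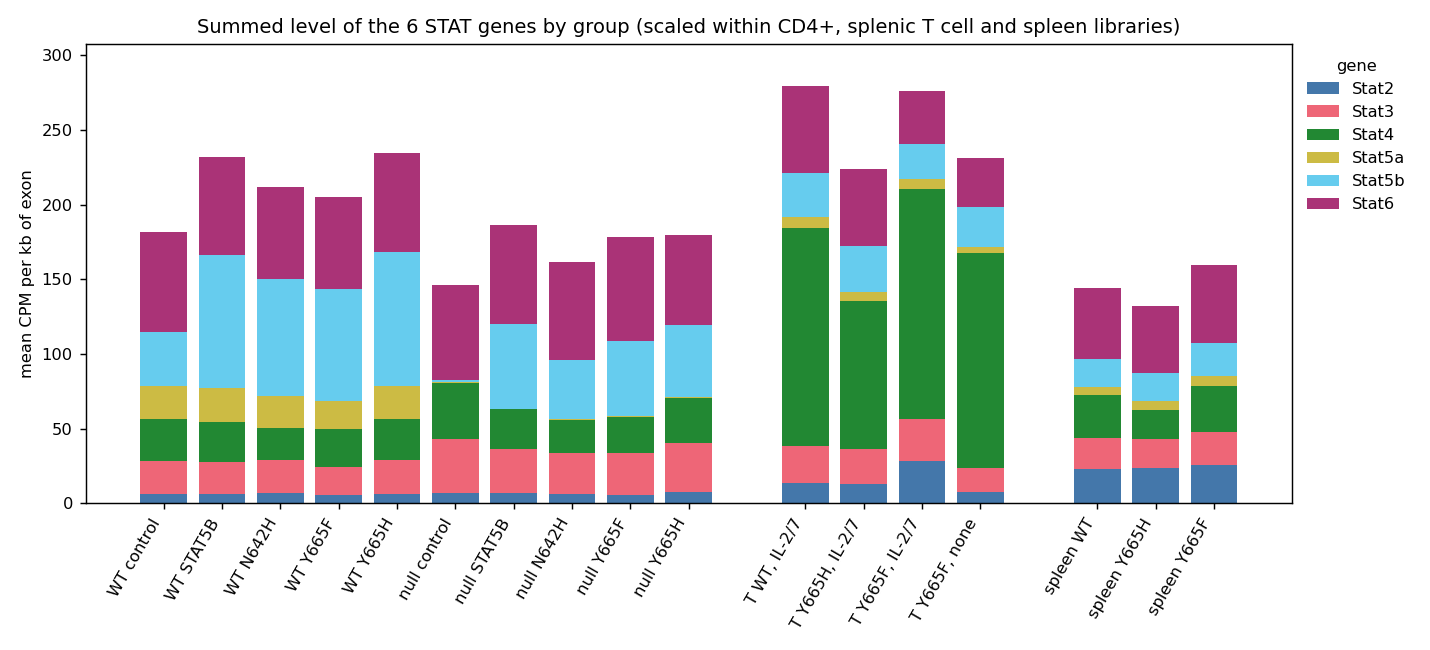
Stacked mean levels of the 6 members in CPM per kb of exon, for each of the 17 groups. The bars start at 0, and are scaled within CD4+ T cells, splenic T cells and spleens, so heights are to be compared within a material. Null cells with the empty vector lack the Stat5a and Stat5b segments, and Stat4 is the tallest segment in splenic T cells.

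Putting STAT5B back into null cells was accompanied by lower Stat4. From the 132 to 152 CPM of the empty vector, Stat4 went to 94.2, 98.2 and 114.2 CPM with STAT5B, to 73.8, 88.5 and 100.7 CPM with N642H, to 74.8, 86.5 and 119.5 CPM with Y665F and to 115.2, 119.7 and 109.0 CPM with Y665H. Every library of every STAT5B vector was below every library of the empty vector. The log2 differences were -0.76 for N642H (SE 0.15, adjusted p = 0.00226), -0.66 for Y665F (SE 0.15, adjusted p = 0.00767), -0.51 for STAT5B (SE 0.15, adjusted p = 0.0838) and -0.32 for Y665H (SE 0.15, adjusted p = 0.896), and only the first pair passed. The difference for Y665F lost its call when library 1 of that group was left out, at -0.52 and an adjusted p of 0.0554. The Y665H difference was not compared with those of the other vectors by a test of its own.

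Stat3 moved the same way without passing in these fits. It was at 261, 289 and 301 CPM with STAT5B, at 221, 269.5 and 287 CPM with N642H, at 237.5, 250.3 and 320 CPM with Y665F and at 267, 310 and 366 CPM with Y665H, beside 283 to 378 CPM with the empty vector. Each vector's libraries overlapped those of the empty vector, and all of them stayed above the 3 WT libraries with the empty vector. The log2 differences were -0.30 (adjusted p = 0.378), -0.46 (0.0606), -0.39 (0.121) and -0.12 (0.939). Counting members, 1 of 6 passed with STAT5B (1.52% of all genes), 2 of 6 with N642H (11.6%), 2 of 6 with Y665F (9.58%) and 1 of 6 with Y665H (0.0249%). Stat5b was among them each time, and Stat4 was the other with N642H and Y665F. For STAT5B and Y665H, none of the 4 members outside the Stat5 pair passed in edgeR, while 1 of 4 had an unadjusted p under 0.05 for each vector, and DESeq2 called 1 of 4 for STAT5B and none for Y665H.

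The libraries of the null background fell into sets by replicate number, and a fit with the number as a block gave more calls. In that fit Stat3 passed with STAT5B (-0.28, adjusted p = 0.0441), N642H (-0.45, adjusted p = 0.000769) and Y665F (-0.39, adjusted p = 0.00303), and it was below the empty-vector library of its own number in 3 of 3 cases for each of the 4 vectors. Stat4 passed also with STAT5B (-0.52, adjusted p = 0.00877), and Stat2 passed with Y665F (-0.41, adjusted p = 0.032). The share of all genes that passed rose as well, to 9.5% with STAT5B, 20.5% with N642H and 18.4% with Y665F, while with Y665H it was 0.149% and no member but Stat5b passed. Stat6 stayed between 239 and 312 CPM in all null groups and passed in neither fit.

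T cell genes moved with these vectors too, where 11.6% of all genes passed with N642H and 9.58% with Y665F. With N642H and with Y665F 4 of 10 T cell genes were lower and 1 was higher than with the empty vector. With N642H 1 of the Cd8 pair was lower and 1 of 7 neutrophil genes was higher. The neutrophil genes summed to 0.148, 0.290 and 6.93 CPM in the N642H libraries, so the sum was high in 1 library alone. With N642H and with Y665F, 1 of 8 erythroid genes was higher. Foxp3 and Ikzf4 were both higher, and summed to 59.8 to 62.1 CPM with N642H and 46.3 to 67.7 CPM with Y665F against 12 to 26.5 CPM. The 8 erythroid genes summed to 1051 to 1296 CPM with N642H and 1058 to 1321 CPM with Y665F against 587 to 766 CPM, of which Tfrc, the transferrin receptor that dividing T cells carry as well, made up 584 to 764 CPM with the empty vector, while Alas2 was at 1.33 CPM at most in every CD4+ library. The part of these differences in the levels of Stat3 and Stat4 was not tested.

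The same vectors moved few members in WT cells. Only Stat5b, whose reads the vector itself adds, passed with STAT5B (0.00975% of all genes), N642H (1.52%), Y665F (1.26%) and Y665H (0.00488%). For the other 5 members none had an unadjusted p under 0.05 in edgeR and DESeq2 called none. Stat4 was nearest, at 85.7, 89.0 and 72.5 CPM with N642H against 123.8, 121.2 and 82.1 CPM with the empty vector, a log2 difference of -0.39 (95% interval -0.85 to 0.07). These libraries overlapped. In a fit with the replicate number as a block, in which 8.28% of genes passed, this difference passed as well, at -0.36 (adjusted p = 0.047). The call of Stat5b with STAT5B was lost when those 6 libraries were fitted alone, at an unmoved log2 difference of 1.30 and an adjusted p of 0.0563.

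Whether a vector acted differently in null than in WT cells was asked of each member by an interaction. Only Stat5b passed, with 4.46 for STAT5B, 4.11 for N642H, 4.54 for Y665F and 4.22 for Y665H on the log2 scale, a size that the deletion sets, since the starting level was 2.78 to 9.49 CPM in null cells and 187 to 209 CPM in WT cells. It is therefore no measure of a difference in response. The shares of all genes that passed were 0.105%, 0.387%, 0.478% and 0.00455%. For Stat4 the interactions were -0.45, -0.32, -0.48 and -0.31, and for Stat3 they were -0.28, -0.45, -0.18 and -0.24, in the same order. All 8 lay below 0, none had an unadjusted p under 0.05 in edgeR and DESeq2 called none. The 4 interactions share their control libraries, so these values do not repeat each other independently. A response of Stat3 or Stat4 that differs between the backgrounds was therefore not shown.

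**Figure D3:**
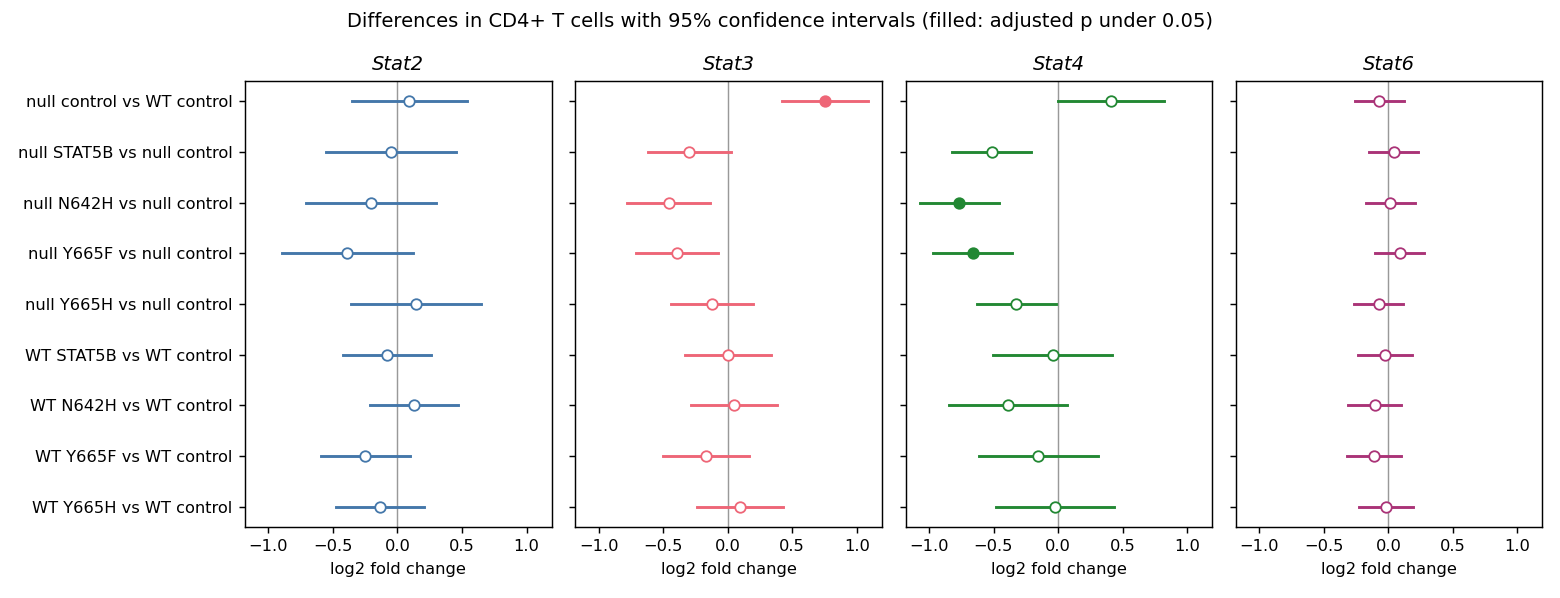
Log2 fold changes of Stat2, Stat3, Stat4 and Stat6 in the CD4+ T cell comparisons, with 95% intervals from edgeR as bars. The comparison of null with WT cells is shown beside each vector against the empty vector of its background. Filled points passed at an adjusted p under 0.05, which holds for Stat3 in the comparison of backgrounds and for Stat4 with N642H and Y665F in null cells.

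How far a vector brought the null cells back to WT cells with the same vector was compared in a set of contrasts added after the data were seen. Stat3 remained higher in null cells, by 0.48 with STAT5B (adjusted p = 0.127), 0.30 with N642H (0.43), 0.57 with Y665F (0.0426) and 0.52 with Y665H (0.0343). It passed with Y665F and Y665H, in comparisons where 3.86% and 11.6% of all genes passed. Stat4 lay within 0.10 of WT cells in all 4 comparisons, with an SE of 0.20 in each. Its intervals ran from -0.45 to 0.37 with STAT5B, -0.32 to 0.50 with N642H, -0.48 to 0.34 with Y665F and -0.31 to 0.50 with Y665H. They were wide beside the Stat4 difference of 0.41 with the empty vector, which did not pass. A return of Stat4 to the WT level was therefore not shown, and Stat4 was not compared with Stat3 by a test. Stat5a stayed low, between -4.45 and -5.66, and passed with all 4 vectors. Stat5b was lower in null cells by 1.00 with N642H (adjusted p = 0.0233) and by 0.89 with Y665H (adjusted p = 0.0184), and with STAT5B (2.77% of all genes) and with N642H (2.99%) the members that passed were Stat5a alone and Stat5a with Stat5b.

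Set in order of their group means over the 10 CD4+ groups, the members had different ranges. The highest group mean was 1.15 times the lowest for Stat6, 1.40 times for Stat2, 1.76 times for Stat4, 1.91 times for Stat3, 48.8 times for Stat5a and 84.6 times for Stat5b. Stat6 was also the steadiest between libraries of a group, with a median coefficient of variation of 3.59%, against 14.5% for Stat3, 14.8% for Stat4 and 19.8% for Stat2. For Stat4 the null empty-vector group was above the next group without overlap, and all other neighbours in its order overlapped. For Stat2, Stat3 and Stat6 every pair of neighbours overlapped in its libraries.

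The genes around the family gave the setting of these changes. A list of 65 genes held the Janus kinases, the cytokine receptors that use each member, the SOCS, PIAS and phosphatase inhibitors, partners such as Irf9 and a few known targets of each member, and all 65 were tested in the CD4+ fits. On loss of Stat5a/b 11 were higher (6.83% of all genes were) and 20 lower (7.06% of all genes). The 7 STAT5 targets were all lower, with Socs2 at -5.75 and Cish at -4.15, both feedback inhibitors of cytokine signals. Of the 4 receptor chains that use STAT5 3 were lower. Of the 5 STAT4 targets 2 were higher, among them Tbx21, the Th1 regulator, at 3.79, and none was lower. Of the 6 STAT3 targets 1 was higher and 2 were lower. Of the 6 STAT6 targets 1 was higher, Maf at 4.07, and 3 were lower. The targets of the 2 members that had the larger differences thus did not all move together.

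Counts over the list are given for each vector beside the share of all genes that passed, and the difference between vectors was not tested. In null cells 10 of the 65 genes were higher and 3 lower with STAT5B (1.52% of all genes), 16 and 8 with N642H (11.6%), 16 and 7 with Y665F (9.58%) and 1 and 0 with Y665H (0.0249%). The 7 STAT5 targets were higher with each of STAT5B, N642H and Y665F. With Y665H the gene that passed was Socs2, at 1.99, beside 4.48 with STAT5B, 5.78 with N642H and 5.62 with Y665F. In WT cells 3 genes were higher and 1 lower with N642H (1.52% of all genes), and 2 were higher and 2 lower with Y665F (1.26%), with Lta, a STAT5 target, at 2.03 and 1.98.

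Splenic T cells carried their STAT genes in other proportions. In WT T cells with IL-2 and IL-7, Stat4 stood at 146 CPM per kb, above Stat6 at 58.3, Stat5b at 29.8, Stat3 at 24.9, Stat2 at 13.4 and Stat5a at 6.99, and it made up 52.6% of the family. The Stat5 pair made up 13.0% ± 1.93 (SD, n = 4) there, 16.6% ± 3.22 (SD, n = 4) in Y665H cells and 10.9% ± 1.73 (SD, n = 4) in Y665F cells. In Y665F cells without interleukin it was 13.3% ± 0.546 (SD, n = 3).

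The RNA of Stat5b itself did not pass between either knock-in and WT T cells. Stat5b was at 157, 164, 213.5 and 125 CPM in WT cells, at 201, 140.5, 161 and 182 CPM in Y665H cells and at 126.5, 137.0, 91.8 and 162 CPM in Y665F cells, all with interleukins. The 3 groups overlapped, with Y665F library 3 below every WT library. Against WT the log2 difference was 0.05 (95% interval -0.36 to 0.47) for Y665H and -0.35 (95% interval -0.76 to 0.07) for Y665F. Stat5a, whose gene is unedited, differed by -0.22 and -0.05.

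No member passed between Y665H and WT T cells in edgeR (0.0762% of all genes) or in DESeq2, and 1 of 6 had an unadjusted p under 0.05. That member was Stat4, at 279, 397, 525.6 and 328 CPM in Y665H cells against 646, 571, 516.5 and 531 CPM in WT cells, with a log2 difference of -0.57 (SE 0.20, adjusted p = 0.439). Of the 4 Y665H libraries, 3 were under the WT range, and these 3 were also those of lowest depth, with 2017012 to 5327354 reads on genes. Without these and Y665F library 3, which had 2851451 reads, the Stat4 difference was -0.12 (adjusted p = 0.996), with the 1 remaining Y665H library assumed to vary like the other groups.

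With interleukins, Stat2 was the member that passed between Y665F and WT T cells. It was at 125.3, 88.4, 212.3 and 254.5 CPM in Y665F cells and at 91.7, 64.5, 87.7 and 74.1 CPM in WT cells, all with interleukins. Library 2 of the Y665F group lay inside the WT range, and libraries 3 and 4 were the highest of all 15 libraries. Reads without a gene made up 84.0% and 79.6% in libraries 3 and 4, and 67.6% and 72.8% in libraries 1 and 2. They made up 63.9% to 72.6% in WT cells, and 77.7% to 85.7% in Y665F cells without interleukin, where Stat2 was lowest. The part of this in the level of Stat2 was not tested. The log2 fold change was 1.10 (SE 0.24, 95% interval 0.60 to 1.59, adjusted p = 0.0184), and Stat2 was the 1 of 6 members that passed, with 1.87% of all genes passing. The call was lost without Y665F library 4 (0.83, adjusted p = 0.123), without Y665F library 3 (0.97, adjusted p = 0.0597), without WT library 2 (1.02, adjusted p = 0.083), without WT library 4 (1.06, adjusted p = 0.0664) and with these 8 libraries fitted alone (1.10, adjusted p = 0.0808). Leaving out the 4 libraries of lowest depth left the call of Stat2 just in place (adjusted p = 0.0498).

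Against Y665H cells, in which Stat2 was at 75.7, 74.4, 81.6 and 76.4 CPM, every Y665F library was higher. The log2 fold change was 1.14 (SE 0.24, adjusted p = 0.00544), again with Stat2 as the 1 of 6 members that passed and with 6.18% of all genes passing. Without the 4 libraries of lowest depth, which left 1 Y665H library, it was 0.99 (adjusted p = 0.538). Stat4 was next at 0.64 (SE 0.20, adjusted p = 0.0596). It passed with library totals in place of TMM (0.65, adjusted p = 0.0112) and in DESeq2 (0.69, adjusted p = 0.00227), and was 0.31 (adjusted p = 0.884) without the libraries of lowest depth. Stat6 was lower in Y665F than in WT cells by 0.71 on the log2 scale without passing (adjusted p = 0.11). Its 4 Y665F libraries were at 214, 183, 100.3 and 129 CPM, and the lowest of them was library 3. Without library 3 the difference was -0.55 (adjusted p = 0.319), and without library 1 it passed, at -0.88 (adjusted p = 0.0445).

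**Figure D4:**
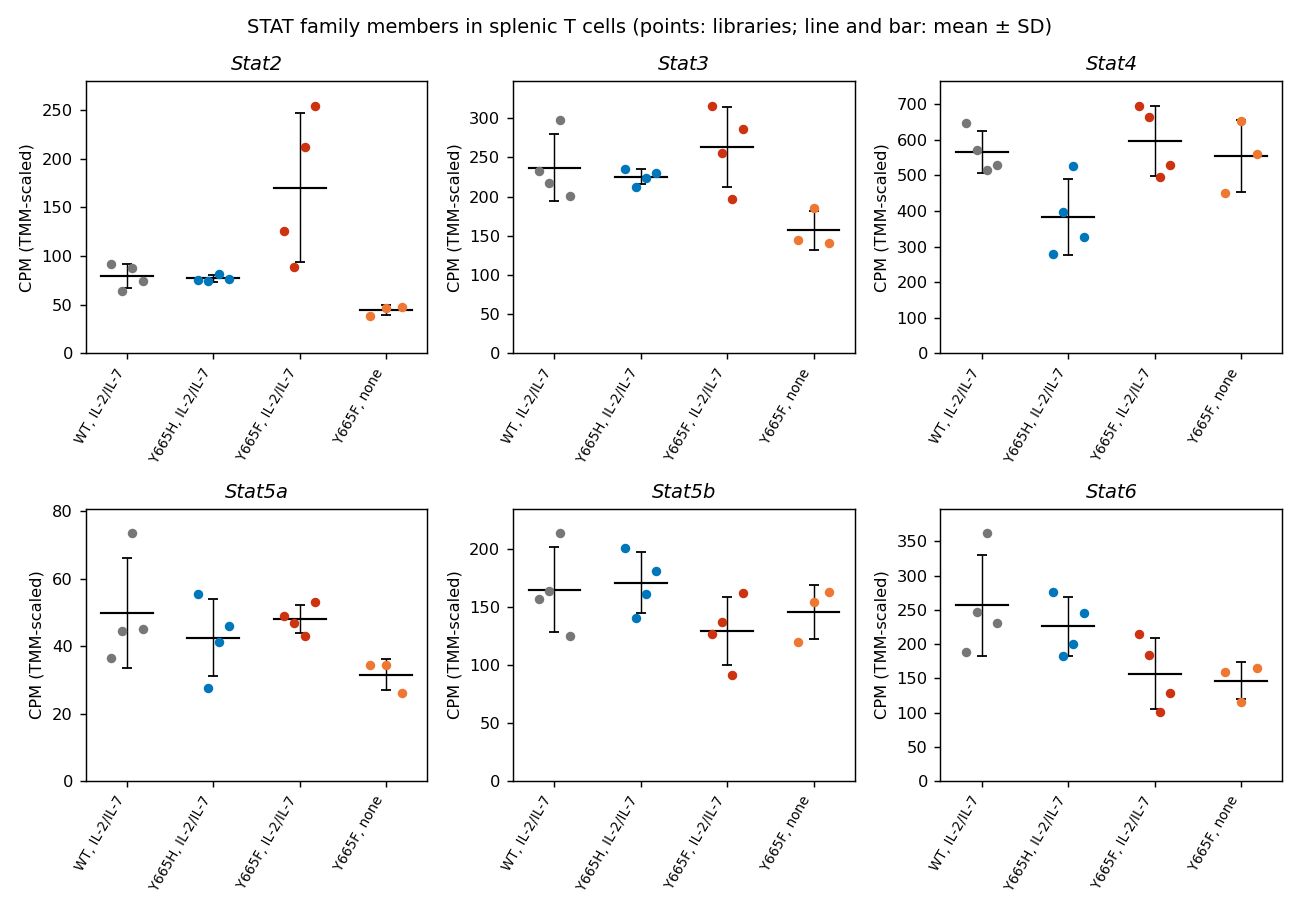
Levels of the 6 members in the 15 splenic T cell libraries, as CPM on linear axes from 0, by genotype and interleukin. Points are libraries, and lines with bars are group means with their SD. Stat2 is lowest in Y665F cells without interleukin, at 38.1 to 47.5 CPM, and highest in Y665F cells with it, at 88.4 to 254.5 CPM.

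Stat2 and Stat3 were higher in Y665F T cells with interleukins than in those without. Culture of the cells without interleukin is not described, so interleukins and 24 h of culture cannot be told apart here. In Y665F T cells without interleukin Stat2 was at 38.1, 46.9 and 47.5 CPM, so that all 4 libraries with interleukins were above them, by a log2 fold change of 1.94 (SE 0.27, adjusted p = 8.05e-05) or 3.84-fold. Stat3 was at 316, 256, 197 and 286.5 CPM with and at 145, 186 and 140.4 CPM without interleukins, again without overlap, by 0.75 (SE 0.20, adjusted p = 0.031). In this comparison 2 of 6 members passed, and 3.85% of all genes did. Stat2 kept its call without Y665F library 3, the library of lowest depth here (1.82, adjusted p = 0.000113). Stat3 lost its call when 5 of the 7 libraries were left out in turn, with adjusted p-values from 0.0561 to 0.195, though its log2 difference stayed at 0.65 or above, and also with library totals in place of TMM (0.57, adjusted p = 0.0662). Stat5a differed by 0.61 (adjusted p = 0.203), Stat4 by 0.10, Stat6 by 0.10 and Stat5b by -0.17. The scaling matters here, since RLE size factors moved the median of all genes by -0.14 in this comparison and by 0.14 between Y665F and WT T cells. With them Stat4 was at -0.04 and Stat6 at -0.07 in the comparison of interleukins, and Stat5a at 0.10 between Y665F and WT T cells. WT and Y665H T cells without interleukin were not analysed here, so this comparison was made in Y665F cells alone.

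Genes of other cell types differed between these T cell groups. Of all genes, 1.87% passed between Y665F and WT cells, 3.85% with interleukins against none and 6.18% between Y665F and Y665H cells. Against WT cells, 4 of 7 neutrophil genes were higher in Y665F cells with interleukins, with sums of 69.0 to 295 CPM against 6.32 to 13.4 CPM. So were 3 of 8 erythroid genes, with sums of 295 to 1485 CPM against 232 to 297 CPM, and 1 of 8 B cell genes, with sums of 18.4 to 547 CPM against 15.9 to 100.6 CPM. T cell genes summed to 716 to 1975 CPM against 1760 to 2646 CPM, with 1 of 10 lower, and Cd4 was lower, at 79.0 to 218 CPM against 302 to 372 CPM. Neutrophil sums were 55.0 to 172 CPM without interleukin, so these overlapped between the Y665F groups. With interleukins 2 of 4 NK genes, 1 of 8 erythroid genes, 1 of the Cd8 pair and 1 of the pair Foxp3 and Ikzf4 were higher than without. Against Y665H cells, 4 of 4 NK genes, 4 of 8 erythroid genes, 4 of 8 B cell genes and 2 of 7 neutrophil genes were higher in Y665F cells. The part of other cells in the level of Stat2 was not tested.

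Among the 65 genes of the pathway, those that passed with Stat2 included its own targets. Between Y665F and WT T cells 5 were higher and 1 lower (1.87% of all genes passed), with 3 of the 7 interferon targets of STAT2 higher, Ifit3 at 2.02 and Ifit1 at 1.5 among them. The other genes that were higher belong to STAT4 signals, Ifng at 2.26, the Th1 cytokine, and Il12rb2 at 1.86, a chain of the IL-12 receptor that is on the list both as receptor and as target. Between Y665F and Y665H T cells 18 were higher and 3 lower (6.18% of all genes), with 5 of 7 STAT2 targets, 3 of 5 STAT4 targets and 5 of 7 STAT5 targets higher. Mx1, an antiviral GTPase, was at 2.46 and Ifng at 3.31. With interleukins 27 were higher and 3 lower than without (3.85% of all genes), with all 7 STAT5 targets and 5 of 7 STAT2 targets higher, led by Ccl17 at 4.61, Osm at 3.67 and Lta at 3.32.

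Stretches of the promoters of Stat2 and Stat4 are shown because they hold an interferon motif. Stat2 passed in each T cell comparison of Y665F cells, and Stat4 passed in none. Stat3, which passed with interleukins against none, held no such motif in its promoter. Promoter sequences from RefSeq (GRCm38.p6, 300 bases around a gene's start) held 9 entries for the 6 members. The letters TTCNNNGAA, which read the same on both strands and are the core of the site that most STAT dimers bind, were in 0 of the 9, beside 8.3% of 32851 promoters. The letters GAAANNGAAA, the core of the interferon-stimulated response element, were searched on both strands and can share bases with the first motif. They were found in the promoter of Stat2 and in 1 of the promoters of Stat4, beside 3.44% of all promoters. Capitals mark the match in each stretch. For Stat2 it lies on the minus strand, 213 bases before the start, in chr10:128270248-128270347, and for Stat4 on the plus strand, 88 bases before a start, in chr1:52008098-52008197.
Stat2: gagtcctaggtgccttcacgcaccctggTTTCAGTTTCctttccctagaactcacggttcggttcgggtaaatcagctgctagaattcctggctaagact
Stat4: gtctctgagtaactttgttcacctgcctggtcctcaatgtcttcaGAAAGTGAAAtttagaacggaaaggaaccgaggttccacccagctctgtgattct
A match describes letters in this window and was not tested for binding.

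In unstimulated spleens the members were steadier between libraries than in splenic T cells, and smaller differences passed. They were also steadier than in CD4+ T cells, except for Stat6. Its median coefficient of variation was 11.2% in spleens and 3.59% in CD4+ T cells. Because spleens are mixtures, fewer cells of a type and less RNA per cell cannot be told apart in any spleen value. Stat6 led at 47.7 CPM per kb in WT spleens, followed by Stat4 at 29.1, Stat2 at 22.9, Stat3 at 20.6, Stat5b at 18.3 and Stat5a at 5.64. The Stat5 pair made up 16.5% ± 1.00 (SD, n = 4) of the family in WT spleens, 18.9% ± 1.02 (SD, n = 5) in Y665H spleens and 18.1% ± 0.969 (SD, n = 7) in Y665F spleens.

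Stat4 was lower in Y665H spleens. It was at 83.7, 74.9, 63.3, 76.0 and 79.4 CPM in the 5 Y665H libraries and at 120.6, 124.9, 93.2 and 111.3 CPM in the 4 WT libraries, without overlap. The log2 fold change was -0.58 (SE 0.09, 95% interval -0.77 to -0.38, adjusted p = 0.00148), and Stat4 was the 1 of 6 members that passed, while 19.8% of all genes passed. It kept its call without any of the libraries in turn, and without Y665H library 1, the library that stood apart, it was -0.58 (adjusted p = 0.000238). The other 5 members differed by 0.11 or less in either direction on the log2 scale, Stat5b by 0.06 with an interval of -0.12 to 0.25.

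T cell genes were lower in the same spleens, in a comparison where 19.8% of all genes passed. Of 10 T cell genes 5 were lower and 0 higher, with sums of 355 to 546 CPM against 489 to 599 CPM, and Cd8a and Cd8b1 were both lower, summing to 76.4 to 107.6 CPM against 162 to 185 CPM. All 4 NK cell genes were lower, at sums of 29.5 to 45.2 CPM against 70.8 to 92.8 CPM, while 7 of 8 erythroid genes and 7 of 7 neutrophil genes were higher. Of 8 B cell genes 4 were lower. Set against the mean of the T cell genes in each library, the Stat4 difference was -0.18 on the log2 scale. That step moves all members by the same amount, so it describes how Stat4 and the T cell genes compare and tests nothing about the members. The part of the cell makeup in the level of Stat4 was not tested.

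Y665F spleens had slightly more Stat5a and Stat5b RNA than WT spleens. Stat5b had its lowest, median and highest value at 109.9, 123 and 138 CPM in 7 Y665F libraries, and was at 86.1, 97.4, 108.0 and 113 CPM in the 4 WT libraries, which overlapped them. The log2 fold change was 0.27 (SE 0.08, adjusted p = 0.04). Stat5a ran from 41.9 over a median of 48.6 to 51.3 CPM against 36.0, 37.5, 45.6 and 41.8 CPM, with a log2 fold change of 0.25 (SE 0.08, adjusted p = 0.0366). These 2 of 6 members passed beside 12.2% of all genes. Both calls were lost without WT library 1, without WT library 2, without Y665F library 5 and without Y665F library 7, with adjusted p-values from 0.0573 to 0.152, and with library totals in place of TMM (0.0603 and 0.0598). Stat2, at 131.5 to 139.6 CPM in WT and 141 to 167.5 CPM in Y665F spleens, did not overlap but differed by 0.18 without passing (adjusted p = 0.124). Stat6 differed by 0.13, Stat3 by 0.10 and Stat4 by 0.07.

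Between the mutants, Stat4, Stat3 and Stat5a were higher in Y665F than in Y665H spleens. For Stat4 the 7 Y665F libraries ran from 105.6 over a median of 119.7 to 134.4 CPM, all above the Y665H libraries, with a log2 fold change of 0.65 (SE 0.08, adjusted p = 4.53e-05). For Stat3 they ran from 200.1 over a median of 205.2 to 229 CPM against 199, 183, 178, 183.5 and 176 CPM, also without overlap but by 0.19 (SE 0.05, adjusted p = 0.0128). Stat5a differed by 0.21 (adjusted p = 0.0313), and lost its call without Y665H library 2, Y665F library 5 or Y665F library 7, with adjusted p-values from 0.0771 to 0.0878. In all, 3 of 6 members passed, and 25.8% of all genes did. Stat5b (0.21, adjusted p = 0.0533) and Stat6 (0.23, adjusted p = 0.0556) were close to passing, and without Y665H library 1 Stat5b passed (0.24, adjusted p = 0.0177).

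Genes of other cell types differed in these comparisons too, where 12.2% of all genes passed against WT spleens and 25.8% against Y665H spleens. Against WT spleens 7 of 10 T cell genes and 5 of 7 neutrophil genes were higher in Y665F spleens, and 3 of 8 B cell, 2 of 7 macrophage and 1 of 4 NK genes were lower. Against Y665H spleens 10 of 10 T cell genes, the Cd8 pair, Cd4 and 3 of 4 NK genes were higher in Y665F spleens, and 8 of 8 erythroid, 3 of 7 macrophage and 1 of 8 B cell genes were lower. T cell genes summed to 657 to 931 CPM in Y665F spleens, above the 489 to 599 CPM of WT and the 355 to 546 CPM of Y665H spleens, so that members set against their mean were lower in Y665F spleens in both comparisons. This shift is the same for all 6 members, so it says nothing about any 1 member. The part of the cell makeup in these levels was not tested.

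**Figure D5:**
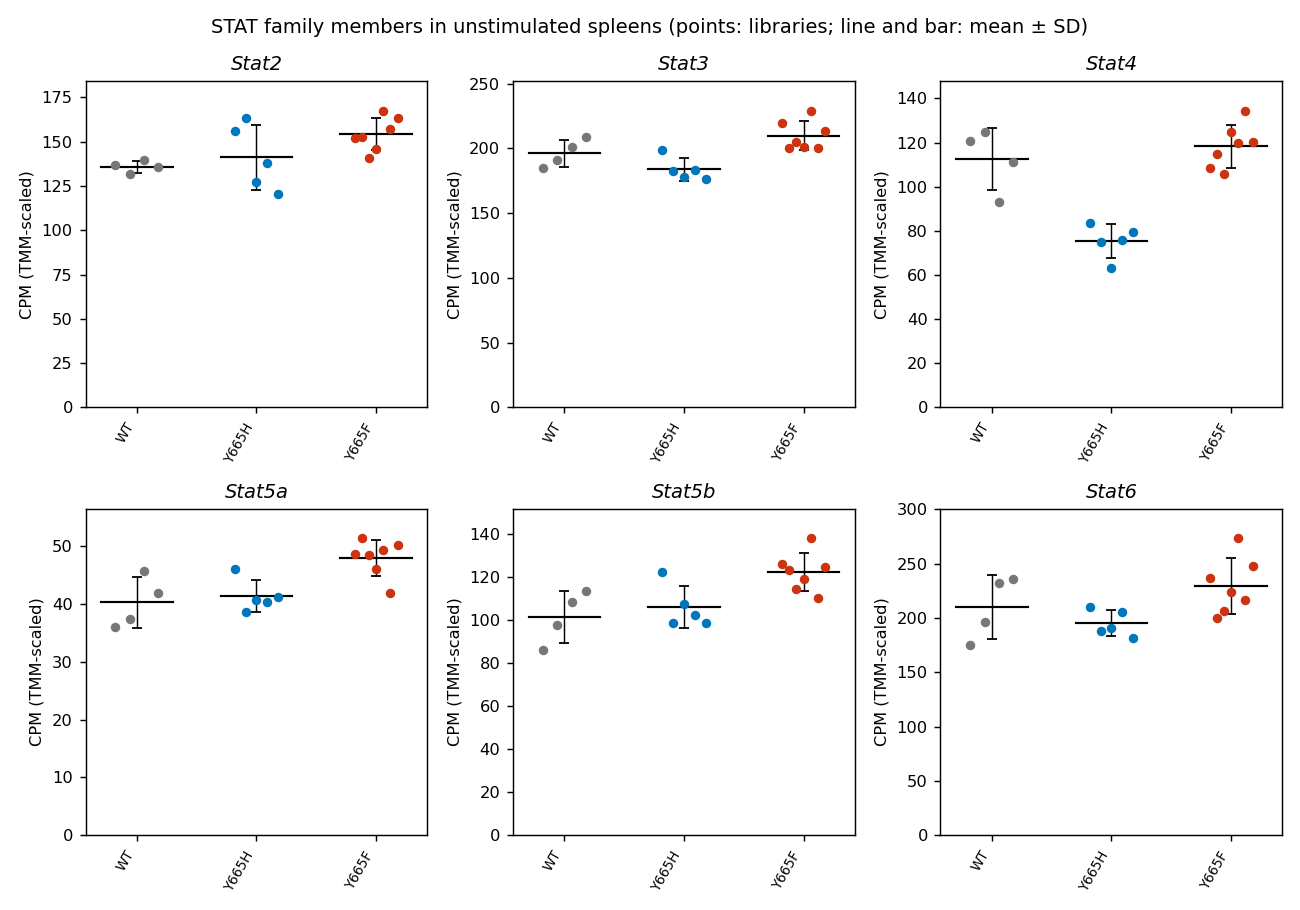
Levels of the 6 members in the 16 spleen libraries, as CPM on linear axes from 0, by genotype. Points are libraries, and lines with bars are group means with their SD. The 5 Y665H libraries lie below the 4 WT and the 7 Y665F libraries for Stat4, and any pair of the groups overlaps for Stat5a, Stat5b and Stat6.

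The 65 pathway genes were counted in spleens as well. Between Y665H and WT spleens 4 were higher (10.7% of all genes were) and 18 lower (9.05% of all genes), with all 4 STAT5 receptor chains lower, Il7r at -1.0, and Isg15, an interferon target, higher at 1.66. Between Y665F and WT spleens 21 were higher (5.63% of all genes) and 1 lower (6.59%), with 6 of 7 STAT5 targets and 5 of 7 STAT2 targets higher and Cish at 1.81. Between Y665F and Y665H spleens 28 were higher (10.5% of all genes) and 4 lower (15.3%), with Il2ra at 1.64, Cish at 1.49, Gata3 at 1.47 and Il18r1, a STAT4 target, at 1.44. Among the 5 STAT4 targets 1 was higher and 2 lower in Y665H than in WT spleens, and 3 were higher and 0 lower in Y665F than in Y665H spleens.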

How the data were processed

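RNA-seq of 61 mouse libraries in 17 groups was analysed. The authors trimmed reads with Trimmomatic 0.36, aligned them with STAR to mm10 and counted them per gene with HTSeq 0.9.1 from a stranded kit. The strand setting and annotation are not given in the sources used here. The deposited values are raw counts of 24421 genes. The 5 closing lines, for reads without a gene (28.4% to 36.9% of reads in CD4+ T cells, 63.9% to 85.7% in splenic T cells, 62.8% to 69.4% in spleens), were left out. RUVSeq, which the study names, was not used.

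Genes with at least 10 reads over a fit were tested with edgeR 4.0.16 (TMM, quasi-likelihood, Benjamini-Hochberg) in separate fits for null, WT and all CD4+, splenic T and spleen libraries, with DESeq2 1.42.0 as an alternative. The code was tested on simulated data. The labels do not say which libraries came from separate mice or cultures, so p-values measure the spread between libraries, which may be technical. Same-numbered libraries deviated together in 30 of 30 pairs in null cells (median correlation 0.466) and 30 of 30 in WT cells (0.635), so blocked values are given there. Other genes are named per comparison, up to 4 of the 65 pathway genes with the largest difference past an adjusted p of 0.05 and a log2 fold change of 1. The comparisons of null with WT cells under the same vector were added after seeing the data. The members and lists were chosen with earlier results of these data known. Lengths and positions come from GENCODE on GRCm38, guide and donor letters from the study's supplement.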

Additional observations from a re-analysis of the deposited data

Results flagged for a closer look

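Against the empty vector, Stat5b rose by more on the log2 scale in null than in WT CD4+ T cells for all 4 vectors. The interaction in edgeR was 4.46 for STAT5B, 4.11 for N642H, 4.54 for Y665F and 4.22 for Y665H. The deletion sets the size of this difference, since the starting level was 2.78 to 9.49 CPM in null cells and 187 to 209 CPM in WT cells, and it is therefore no measure of a difference in response. Every null library with a vector was above every null library with the empty vector, and the same held in WT cells. No other member was singled out in this way. In the 36 combinations of a member and a group of 4 to 7 libraries, 0 held a library far from the others by Dixon's test at its 95% critical value, of which chance alone would give about 1 in 20.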

How the results depend on the processing

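Over all members and comparisons, 1805 alternative tests kept the side of the threshold, 34 lost a call, 43 gained 1 and 14 reversed. A change of sign was counted as reversed only where the main or the alternative test passed. The 1805 therefore include changes of sign between tests that did not pass. The call of Stat3 on loss of Stat5a/b, of Stat4 with N642H in null cells, of Stat2 with interleukins and of Stat4 in Y665H spleens kept an adjusted p under 0.05 under every alternative of scaling, filter, tool, block and left-out libraries. With a log2 fold change beyond 1 as a further criterion, these calls of Stat3 and Stat4 are lost and that of Stat2 stays. The number of members passing moved as follows. With the replicate block it was 3 for STAT5B and 4 for Y665F in null cells, 2 for N642H in WT cells, 1 for interleukins against none in T cells, 0 for Y665F against WT spleens and 1 for Y665F against Y665H spleens. The block changed no other count by over 1.5 times. In T cells and spleens, where numbers do not pair libraries, these values are an alternative only. With no filter on low counts and with DESeq2 the number was 2 for STAT5B in null cells. For Y665F against Y665H T cells it was 2 with RLE size factors, library totals, filterByExpr and DESeq2, and 0 without the 4 libraries of lowest depth, an alternative chosen after seeing the data. For Y665F against Y665H spleens it was 5 with RLE size factors, library totals, filterByExpr, DESeq2 and the groups fitted alone. Library totals gave 1 for interleukins against none and 0 for Y665F against WT spleens. The groups fitted alone gave 0 for STAT5B in WT cells, 0 for Y665F against WT T cells and 1 for interleukins against none. Requiring a log2 fold change beyond 1 gave 2 for the loss of Stat5a/b, 1 for N642H and for Y665F in null cells, 1 for interleukins against none and 0 for all 3 spleen comparisons. Leaving out 1 library at a time gave 2 to 3 members for N642H and 1 to 3 for Y665F in null cells, 0 to 2 for Y665F against WT T cells, 1 to 2 for Y665F against Y665H T cells, 1 to 2 for interleukins against none, 0 to 2 for Y665F against WT spleens and 2 to 5 for Y665F against Y665H spleens, and changed no other count. The cause of these shifts was not tested.

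Setting spleen values against the mean of the T cell genes moves all members of a comparison by the same amount. The 14 values counted as reversed arose in this step, so they follow from the T cell genes and are no evidence about the members. They were 0.29 for Stat3 and 0.29 for Stat6 in Y665H against WT, -0.42 for Stat2, -0.50 for Stat3, -0.52 for Stat4, -0.34 for Stat5a, -0.32 for Stat5b and -0.47 for Stat6 in Y665F against WT, and -0.85 for Stat2, -0.79 for Stat3, -0.34 for Stat4, -0.77 for Stat5a, -0.77 for Stat5b and -0.76 for Stat6 in Y665F against Y665H. The lowest depths were among the T cell libraries, of which 4 held 2017012 to 5327354 reads on genes, and with the lowest of these Stat5a was counted 57 times.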

Other observations

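Over the 10 CD4+ group means, the genes whose levels followed a member most closely among 10923 genes were, for Stat2, Gabbr1 (Pearson r = 0.985), Snx32 (0.957) and Trim68 (0.944), for Stat3, Frat1 (0.993), Wdr6 (0.992) and Fam214a (0.990), for Stat4, Lrrcc1 (0.965), Zfp251 (0.961) and Zfp53 (0.958), and for Stat6, Slc25a44 (0.961), Usp37 (0.932) and Tatdn2 (0.926). The 10 points are group means that share libraries' scaling, and the genes are the closest of many, so the values describe likeness of pattern alone.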
